A study of Mus musculus with 4 samples.

Results

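The replication and mitosis genes described here are 35 genes of the cell division cycle, chosen by symbol from the 32285 genes of the 4 count matrices, and all 35 were found there. 15 act in DNA replication (Mcm2 to Mcm7, Pcna, Tyms, Rrm1, Rrm2, Gins2, Cdc6, Cdt1, Ccne1 and Ccne2), and 20 act mainly from the end of replication through mitosis (Mki67, Top2a, Ccna2, Ccnb1, Ccnb2, Cdk1, Cdc20, Bub1, Bub1b, Aurka, Aurkb, Plk1, Birc5, Cenpe, Cenpf, Tpx2, Ube2c, Kif11, Kif23 and Hmgb2). They were measured in single-cell RNA libraries of embryonic mouse lung cells that carried the red tdTomato label after Cre activity from the Wt1 locus, and the comparison asks whether cells of Myrf mutants (Myrf encodes a membrane-bound transcription factor) differ from Cre controls in these genes once the kinds of cells in each library are taken into account.

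Both groups came from crosses that carried Myrf Fl/Fl alleles, which Cre can delete, the tamoxifen-inducible Wt1creERT2 driver and the R26TdTomato reporter. Tamoxifen was given to the pregnant females at E12.5, and the lungs were taken at E16.5. Each genotype was a pool of 3 to 5 lungs from which tdTomato-positive, Dapi-negative cells were sorted, and each group holds 2 libraries, called control 1, control 2, mutant 1 and mutant 2. Animals were first assigned to a genotype by the look of lung and cells and then typed by PCR, and the labels do not say which Myrf alleles the Cre controls carried. Wt1 marks mesothelium, so the label is meant to reach the mesothelium and whatever cells descend from it after the tamoxifen dose. The sorted cells also held an epithelial-like cluster (22, 18, 16 and 55 cells in control 1, control 2, mutant 1 and mutant 2). An unnamed cluster with endothelial and immune markers held 14, 19, 11 and 62 cells. How these cells came to be in the sort was not tested. The labels call all 4 samples mesothelial cells, but the mesothelial markers were concentrated in the controls: the 2 mesothelial-like clusters held 118 and 742 cells of the 2 controls, and 2 and 1 cells of the 2 mutants. A further cluster, almost all from control 2, also carried mesothelial markers but was left unnamed as mixed (described below).

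Before a cell copies its DNA, Cdc6 and Cdt1 load the ring of Mcm proteins onto replication origins, Gins2 helps to turn that ring into an active helicase, and Pcna clamps the polymerases to the template while ribonucleotide reductase (Rrm1, Rrm2) and thymidylate synthase (Tyms) supply nucleotides. Cyclin E (Ccne1, Ccne2) drives entry into replication, and cyclin A and the B cyclins with Cdk1 drive the later steps into mitosis. In embryonic lung most cell types still divide, and genes of both sets are transcribed in waves by E2F factors and by the MuvB complex with B-Myb and FoxM1, which act through short promoter elements.

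Promoter stretches are shown for 5 members, because the members move together between cells: Mcm3 and Bub1b, which had the smallest p-values among the members in the comparison of all sorted cells, Mcm6, which holds an E2F element, and Top2a and Hmgb2, which hold both CCAAT boxes and a CHR element (the cell cycle homology region). The 100 bases before the RefSeq start are given 5′ to 3′ on the gene's strand in the order of those names, from chr1:20820313-20820412 (minus strand), chr2:118598111-118598210 (plus strand), chr1:128359706-128359805 (minus strand), chr11:99024190-99024289 (minus strand) and chr8:57511743-57511842 (plus strand) of mouse build mm10. Capitals mark matches on either strand to the E2F elements TTTCCCGC, TTTCGCGC, TTTGCCGC and TTTGGCGC, to the CCAAT box, and to the CHR elements TTTGAA and TTCGAA.
Mcm3: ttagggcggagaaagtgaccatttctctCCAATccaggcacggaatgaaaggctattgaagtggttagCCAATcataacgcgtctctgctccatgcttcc
Bub1b: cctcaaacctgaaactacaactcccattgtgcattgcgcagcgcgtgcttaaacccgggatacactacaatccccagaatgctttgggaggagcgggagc
Mcm6: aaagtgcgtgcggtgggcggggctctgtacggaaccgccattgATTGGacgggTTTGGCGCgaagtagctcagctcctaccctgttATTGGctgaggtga
Top2a: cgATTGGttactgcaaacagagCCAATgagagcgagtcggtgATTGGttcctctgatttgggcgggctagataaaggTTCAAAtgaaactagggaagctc
Hmgb2: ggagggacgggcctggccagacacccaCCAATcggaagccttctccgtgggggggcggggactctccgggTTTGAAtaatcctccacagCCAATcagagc

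RefSeq promoter windows were matched by symbol for 29 of the 35 members, and the 250 bases before the start were searched on both strands. A CCAAT box was found for 16 of 17 mitosis members and 8 of 12 replication members, and in 33.8% of all 32851 windows of that length. A CHR element was found for 9 of 17 mitosis members (Bub1b, Ccnb2, Cdc20, Cdk1, Hmgb2, Kif11, Mki67, Top2a and Ube2c) and 2 of 12 replication members (Mcm2 and Mcm7), against 17.1% of all windows. The 9 mitosis members with a CHR element also held a CCAAT box, a combination present in 6.02% of all windows. An E2F element was found for 4 of 12 replication members (Cdc6, Mcm5, Mcm6 and Mcm7) and for 1 of 17 mitosis members (Cdk1), against 1.86% of all windows. The genes shown lie at chr1:20802968-20820312 (Mcm3), chr2:118598211-118641591 (Bub1b), chr1:128331590-128359664 (Mcm6), chr11:98992943-99024189 (Top2a) and chr8:57511907-57515999 (Hmgb2) in the GENCODE annotation of mm10, so each printed stretch lies upstream of its own gene; overlap with other genes is not described here. These are matches of letters in a window and do not show that a factor binds there.

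Counts were unique molecular identifiers (UMIs) per gene and cell. After cells with few genes or a high mitochondrial share and probable doublets were left out, 281, 3503, 411 and 4275 cells remained in control 1, control 2, mutant 1 and mutant 2, with 8175944, 58045818, 20954282 and 80755665 UMIs. The filter on genes and mitochondrial share removed 32.5% and 15.6% of the barcodes in the smaller libraries, control 1 and mutant 1, and 9.12% and 5.92% in control 2 and mutant 2. Median UMIs per cell were 29175 and 38719 in the 2 smaller libraries and 14322 and 15957 in the larger ones, so all shares of cells below use cells thinned to 5000 UMIs each. In control 2, 2047 of 3503 cells formed a cluster left unnamed as mixed, in which 77.3% of all cell type markers differed by less than 2-fold from the remaining cells of that library (the Ecrg4 cluster). Such barcodes numbered 9, 0 and 6 in control 1, mutant 1 and mutant 2, and results over all cells are therefore given with and without them. The targeted gene Myrf was at 76.0 and 48.5 CPM (a gene's UMIs over the library's summed UMIs, scaled to the same total in each library) in the controls and at 19.1 and 7.22 CPM in the mutants over all sorted cells (log2 change −2.22, edgeR quasi-likelihood test with Benjamini-Hochberg adjusted p = 0.131). Only 9 barcode sequences were shared between libraries.

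In all sorted cells, every one of the 35 members had a higher fitted level in the mutants, but none passed the test. The members' median log2 change was 0.43, against 0.03 over the 16246 genes tested, of which 52.8% were higher. The edgeR quasi-likelihood test called 0 members, and 2 had an unadjusted p under 0.05 (8.74% of all genes). DESeq2 also called 0 (499 of all 16246 genes). Over all genes edgeR called 3 higher (0.0185%) and 55 lower (0.339%). For 19 of the 35 members both mutant libraries lay above both controls, where 12.6% of all tested genes did so, and no member lay below both controls (17.8% of all genes).

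The replication members had a median log2 change of 0.50 in all sorted cells. Mcm3, a subunit of the replicative helicase ring, stood at 64.2 and 55.5 CPM in the controls and at 94.3 and 92.8 CPM in the mutants. Mcm5, another subunit of the ring, stood at 31.6 and 35.5 CPM against 41.2 and 52.9 CPM. For both genes the 2 groups did not overlap, with log2 changes of 0.72 ± 0.24 (SE, 2 libraries per group, edgeR adjusted p = 0.402) for Mcm3 and 0.57 ± 0.30 for Mcm5 (edgeR adjusted p = 0.775). The polymerase clamp gene Pcna was at 111 and 135 CPM in the controls and 105 and 180 CPM in the mutants. Rrm2, the small subunit of ribonucleotide reductase, was at 36.2 and 47.8 CPM against 41.0 and 75.0 CPM. In both genes mutant 2 was highest and mutant 1 lay below or among the controls. The cyclin E genes went the same way only in part: Ccne1 was at 27.5 and 34.0 CPM in the controls and 31.8 and 52.5 CPM in the mutants, and Ccne2 at 54.9 and 36.8 CPM against 46.7 and 46.4 CPM. The groups overlapped for both cyclins. Mcm7 had the lowest log2 change of the 35, 0.01.

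The mitosis members had a median log2 change of 0.43. Bub1b, a kinase-like protein of the spindle checkpoint, stood at 38.2 and 33.9 CPM in the controls and at 50.5 and 54.3 CPM in the mutants, a log2 change of 0.63 ± 0.24 (SE, edgeR adjusted p = 0.521). Top2a, the topoisomerase that untangles replicated chromosomes, was at 385 and 315 CPM against 450 and 419 CPM. Ccna2 was at 51.6 and 51.0 CPM against 52.6 and 75.4 CPM, and Ccnb1 at 44.0 and 45.9 CPM against 49.1 and 63.1 CPM. These 4 genes did not overlap between the groups, although mutant 1 exceeded the nearest control by little for Ccna2. Mki67, the chromosome-surface protein used as a stain for dividing cells, was at 357 and 198 CPM in the controls and 410 and 247 CPM in the mutants. Cdk1, the kinase that drives entry into mitosis, was at 97.2 and 111 CPM against 82.2 and 154 CPM. Both overlapped between the groups, Mki67 because the first library of each group was the higher one and Cdk1 because mutant 1 was the lowest library.

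The size of these differences was set largely by 1 library. Without mutant 1, the members' median log2 change was 0.78 and 6 members passed edgeR's test: Aurkb, Bub1, Ccne1, Cdc6, Rrm2 and Tyms, with log2 changes from 0.93 to 1.11. The same fit called 240 of 17294 genes higher (1.39%) and 857 lower, 1097 in all against 58 with all 4 libraries. Tyms stood at 49.9 and 81.5 CPM in the controls and at 56.5 and 125 CPM in the mutants, and Aurkb, a kinase of chromosome segregation, at 27.6 and 40.8 CPM against 33.5 and 63.2 CPM. Bub1, a spindle checkpoint kinase, stood at 32.7 and 25.8 CPM against 34.0 and 48.0 CPM, and Cdc6 at 10.8 and 11.8 CPM against 15.4 and 18.7 CPM. Mutant 2 was the highest library for all 6, and mutant 1 lay between the controls for Tyms, Aurkb, Rrm2 and Ccne1. Without mutant 2 the median was 0.03, with 19 members higher and 16 lower. Leaving out the mixed barcodes gave a median of 0.42 with 34 members higher, 0 called (0.0127% of all genes higher and 0.222% lower) and 14 with both mutants above both controls (11.3% of 15746 genes).

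**Figure D1:**
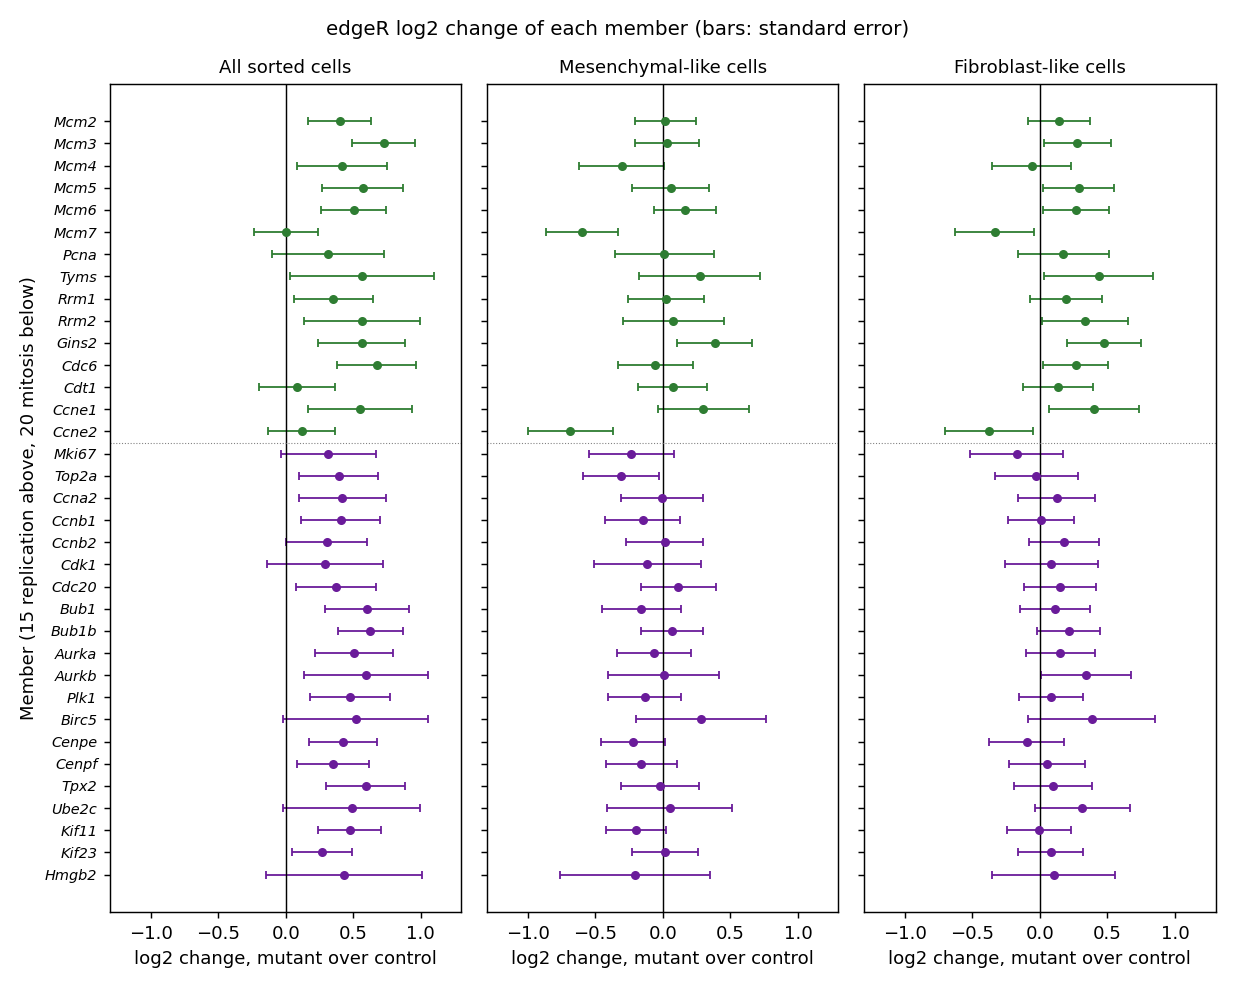
Each point is the log2 change of 1 member, mutant over control, with its standard error as a bar, in all sorted cells (left), mesenchymal-like cells (middle) and fibroblast-like cells (right), for the 15 replication members in green and the 20 mitosis members in purple. The points lie to the right of 0 in all sorted cells, with a median of 0.43, and around 0 in mesenchymal-like cells, with a median of 0.01.

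In mesenchymal-like and in fibroblast-like cells the members lay closer to no change. Mesenchymal-like cells were the fibroblast-like, smooth muscle-like and pericyte-like clusters together, and in them the members' median log2 change was 0.01, with 18 members higher and 17 lower. That median ran from −0.35 without mutant 2 to 0.23 without mutant 1. At a finer clustering (Leiden resolution 0.8) it was 0.23, and there a cluster of 1173 cells (2, 17, 180 and 974 in control 1, control 2, mutant 1 and mutant 2) had only 1 smooth muscle marker, was left unnamed and was not in the class. In fibroblast-like cells alone it was 0.14, with 28 higher and 7 lower, against a median of 0.02 over all genes, of which 53.2% were higher. The make-up of this class by cluster also differed between the groups (given below). No member passed edgeR's test in either population, and 0 had an unadjusted p under 0.05 in each (8.50% and 2.01% of all genes). DESeq2 called 0 as well (374 of 14323 and 7 of 12633 genes). Over all genes edgeR called 0 of 14323 (0%) in mesenchymal-like cells and 0 of 12633 (0%) in fibroblast-like cells. Whether the change differs between these populations and all sorted cells was not tested.

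In mesenchymal-like cells 2 members, Mcm6 and Gins2, had both mutants above both controls (13.1% of all genes), and 10 had both below them (20.9% of all genes). The 10 were Cenpf, Bub1, Cenpe, Ccne2, Mcm7, Plk1, Top2a, Ccnb1, Mcm4 and Kif11. Top2a stood at 575 and 570 CPM in the controls and 454 and 419 CPM in the mutants, a log2 change of −0.31 ± 0.28 (SE, edgeR adjusted p = 0.946). Ccne2 stood at 107 and 58.7 CPM against 48.8 and 47.1 CPM, a log2 change of −0.69 ± 0.31, the lowest of the 35 (edgeR adjusted p = 0.664). Both genes were thus lower in the mutants here and higher in all sorted cells. Mcm3 was at 102 and 90.2 CPM against 92.5 and 92.1 CPM, a log2 change of 0.03, and Bub1b was at 52.8 and 54.6 CPM against 52.0 and 53.9 CPM.

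The clusters behind the mesenchymal-like class differed between the groups. In the controls it was mostly the Lef1 cluster (48 and 232 cells) and the Tcf21 cluster (39 and 203 cells), both fibroblast-like. In the mutants it also held the Des cluster, smooth muscle-like and led by Tnnt2, Des and Actc1, with 249 and 1344 cells against 1 and 23 in the controls. The other smooth muscle-like cluster, led by Myh11, had 19 and 141 cells in the controls and 24 and 277 in the mutants. In the same mesenchymal-like cells 13 of 15 genes of a list that responds to tissue dissociation were higher in the mutants, with a median log2 change of 0.73. edgeR called none, with 7 at an unadjusted p under 0.05 (8.50% of all genes). DESeq2 called 3, Atf3, Hspb1 and Ier3, and 374 of all 14323 genes. In all sorted cells 13 of the 15 were lower, with a median of −0.27. Their part in the members' values was not tested.

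In fibroblast-like cells 7 members had both mutants above both controls (7.50% of all genes): Mcm3, Mcm5, Mcm6, Gins2, Cdc6, Rrm1 and Bub1b. All but Bub1b are replication members, which had a median log2 change of 0.26, against 0.10 for the mitosis members. Ccnb1 was the 1 member with both mutants below both controls (12% of all genes), at 77.1 and 81.7 CPM against 76.0 and 74.6 CPM. Mcm3 stood at 116 and 107 CPM against 141 and 116 CPM, a log2 change of 0.28 ± 0.25 (SE, edgeR adjusted p = 0.999). Mcm5 stood at 59.2 and 51.9 CPM against 59.8 and 66.4 CPM. The gap between the nearest libraries of the 2 groups was therefore below 1 CPM for both genes. Rrm2 was at 70.3 and 75.3 CPM against 69.4 and 99.3 CPM, Pcna at 187 and 176 CPM against 159 and 220 CPM, and Ccne1 at 41.6 and 50.7 CPM against 44.9 and 67.0 CPM. In each of these 3 genes mutant 2 was highest and mutant 1 lay below or among the controls, as in all sorted cells.

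Among the mitosis members of fibroblast-like cells, Mki67 stood at 566 and 404 CPM in the controls and 553 and 291 CPM in the mutants, and Top2a at 714 and 648 CPM against 758 and 532 CPM. Ccna2 was at 82.5 and 84.7 CPM against 76.0 and 93.4 CPM, Cdk1 at 159 and 165 CPM against 128 and 188 CPM, and Bub1b at 64.1 and 60.01 CPM against 71.5 and 64.7 CPM. The 2 mutants lay further apart than the 2 controls for Mki67, Top2a, Ccna2 and Cdk1. Ccne2, at 131 and 69.7 CPM against 86.4 and 61.2 CPM, was the member with the lowest log2 change in this class, −0.37 ± 0.32.

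The 2 fibroblast-like clusters with at least 20 thinned cells in every library gave medians near 0 when fitted alone. edgeR called 0 members and 0% of all genes in each. In the Lef1 cluster 17 of 35 members were higher, with a median log2 change of −0.01, and Gins2 was the only member with both mutants above both controls (7.63% of all genes), at 48.1 and 44.8 CPM against 50.7 and 65.3 CPM. Below both controls lay Bub1, Mcm7, Rrm1 and Plk1 (12.2% of all genes). In the Tcf21 cluster the median was −0.08, and the sets went apart: the replication members had a median of 0.31 and the mitosis members of −0.16. Mcm3, Mcm5, Mcm6, Gins2 and Rrm2 lay above both controls there (8.97% of all genes), and Mki67 and Cenpe below both (14.4%). Mutant 1 held only 25 Tcf21 cells and set the low mitosis level: Ccnb1 was at 4.55 CPM in it, against 69.6, 80.0 and 75.2 CPM in control 1, control 2 and mutant 2.

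Summed over members, the CPM of the sets gave the same picture. In all sorted cells the 15 replication members summed to 836 and 847 CPM in the controls and 912 and 1177 CPM in the mutants, and the 20 mitosis members to 2783 and 2743 CPM against 2844 and 4051 CPM. In fibroblast-like cells the sums were 1452 and 1296 CPM against 1358 and 1452 CPM for replication, and 4757 and 4892 CPM against 4446 and 5073 CPM for mitosis. The groups overlapped in fibroblast-like cells for both sets and did not overlap in all sorted cells. Without the mixed barcodes they overlapped there too, at 846 and 925 CPM against 912 and 1177 CPM for replication and 2808 and 3153 CPM against 2844 and 4052 CPM for mitosis. Hmgb2, a chromatin protein that is also present in cells that do not divide, gave 18.1% to 31.6% of all member UMIs in the 4 libraries.

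**Figure D2:**
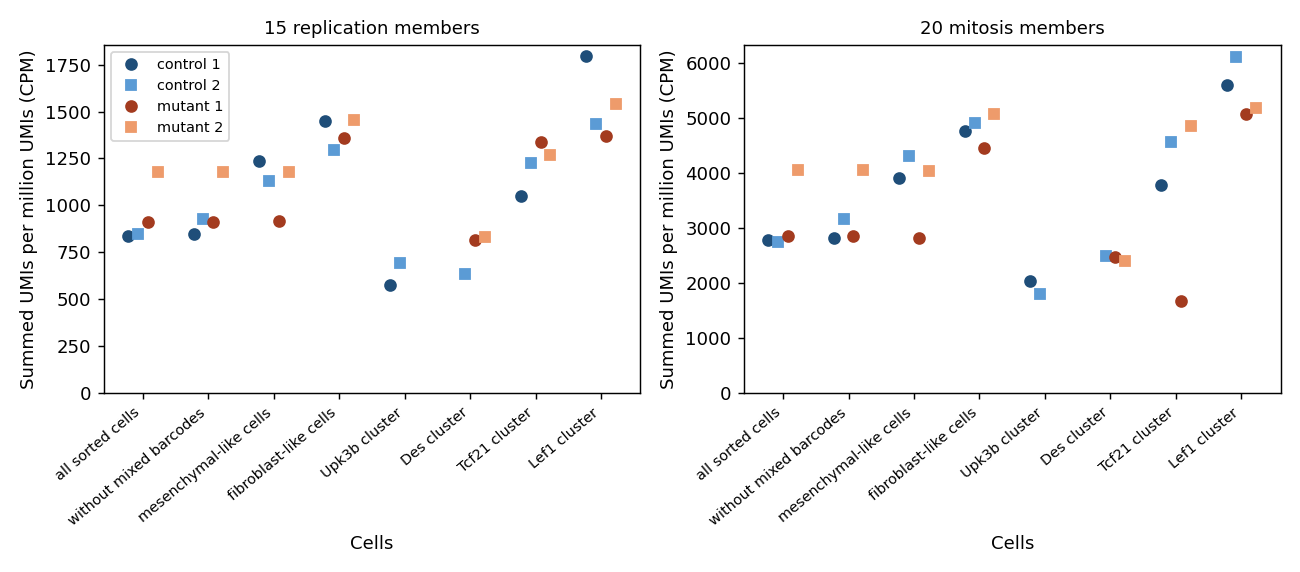
Summed CPM of the 15 replication members (left) and the 20 mitosis members (right) in each library, by cell population, for 8 populations, each shown where the library has at least 20 cells of it; the Myh11 cluster and the smaller clusters are not drawn. Among the points drawn the replication sum runs from 574 CPM in the Upk3b cluster of control 1 to 1796 CPM in the Lef1 cluster of the same library.

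In the controls, 34 of 35 members were higher in fibroblast-like cells than in the mesothelial-like Upk3b cluster in both libraries (41.0% of all genes), with a median log2 ratio of 1.27 against −0.01 over all genes. Top2a was at 714 and 648 CPM in the fibroblast-like cells of control 1 and control 2, and at 259 and 217 CPM in their Upk3b cells. Cdt1, the origin-licensing factor, was the exception, at 23.7 and 22.5 CPM against 17.6 and 25.2 CPM, and no member was lower in both libraries (43.5% of all genes). The difference did not hold for every fibroblast-like cluster. In the 68 Dpt cells of control 2 all members summed to 2441 CPM, against 2478 CPM in its Upk3b cells. The members and the genes that follow them had been left out of the clustering, so they did not define these clusters. Lef1 cells also exceeded Des cells in all 35 members in mutant 1, in mutant 2 and in control 2, with median log2 ratios of 0.80, 0.94 and 1.26. Tcf21 cells exceeded Des cells in all 35 members in control 2 and mutant 2, but in 15 of 35 in mutant 1, with a median log2 ratio of −0.51 from its 25 Tcf21 cells. The share of all genes that were higher was not computed for the pairs with Des cells, so these counts stand without a background.

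The Upk3b cells were nearly absent from the mutants and the Des cells nearly absent from the controls, so these 2 populations were set side by side across genotypes. 20 of 35 members were higher in the Des cells of both mutants than in the Upk3b cells of both controls (24.2% of all genes), and Cdt1 alone was lower (31.0% of all genes). The median log2 ratio was 0.44 for the members and −0.06 for all genes. Mcm3 was at 81.5 and 60.6 CPM in the Des cells of the mutants and at 36.9 and 40.6 CPM in the Upk3b cells of the controls. Bub1b was at 48.8 and 35.1 CPM against 29.0 and 23.4 CPM, and Ccnb1 at 44.1 and 40.1 CPM against 31.6 and 29.6 CPM. Genotype and cell class cannot be told apart in this pair. Only control 2 held more than 1 cell of each population, with 23 Des cells and 668 Upk3b cells. There the replication members summed to 631 CPM in Des cells and 692 CPM in Upk3b cells, and the mitosis members to 2488 and 1786 CPM. The other mesothelial-like cluster, led by Col6a5, was not part of this pair. All members summed there to 740 CPM in control 1 (8 cells) and 3803 CPM in control 2 (74 cells). In Upk3b cells of the controls these sums were 2605 and 2478 CPM, and in Des cells of the mutants 3291 and 3222 CPM.

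The number of member UMIs per cell gives the share of dividing cells only within limits. A cell was first called member-high at 5 or more member UMIs after thinning to 5000. Outside the mixed barcodes the number of cells fell steeply from a peak at 2 UMIs and levelled off from about 14 UMIs, so 5 lies on the slope of the low cells. A second limit of 16, where the fall has ended, was therefore set after the data were seen, and cells at or above it are called upper-range cells. Their division was not measured, and the limit cuts a continuous range: 115 cells had 14 or 15 member UMIs and 118 had 16 or 17.

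**Figure D3:**
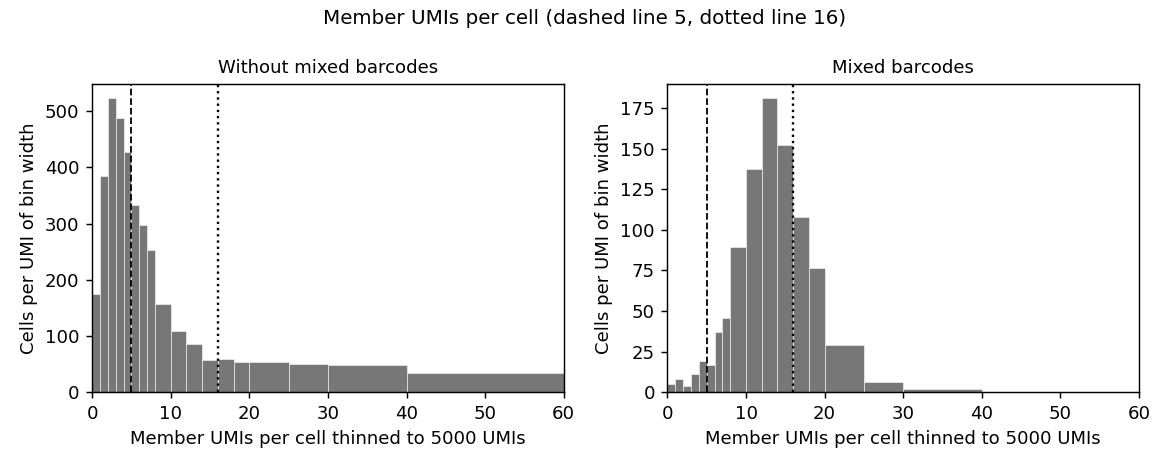
Number of cells, divided by bin width, against member UMIs per cell after thinning to 5000 UMIs, for all libraries together without the mixed barcodes (left) and for the mixed barcodes (right), with lines at 5 UMIs (dashed) and 16 UMIs (dotted). The left panel falls from a peak at 2 UMIs into a long flat tail, and the right panel has a single hump between 10 and 20 UMIs. Beyond the plotted range, at 60 or more UMIs, lay 529 and 1 cells.

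Member levels were higher together in cells that other cell cycle genes mark. With cells split at 20 UMIs of 46 other replication genes and 62 other mitosis genes, none of them members, all 35 members were higher in the upper cells of each of the 4 libraries (mixed barcodes left out). For those with at least 1 UMI in the other cells, 32 to 35 of the 35, the median ratio was 12.4 and 15.6 in the controls and 10.5 and 11.04 in the mutants. The ratio was smallest for the replication members, with medians from 2.93 in mutant 2 to 5.65 in control 1, and larger for the mitosis members, with medians from 22.4 in mutant 2 to 39.5 in control 1. Top2a was detected in 77.1%, 72.5%, 76.1% and 69.1% of the upper cells of control 1, control 2, mutant 1 and mutant 2, and in 7.51%, 6.11%, 6.50% and 6.48% of the other cells. Hmgb2 was detected in 53.2%, 63.9%, 48.8% and 72.1% of the other cells, so a UMI of Hmgb2 marks an upper cell less sharply. How much of the signal in the other cells is free RNA was not tested.

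Over all sorted cells, 124 of 248 thinned cells of control 1 and 78.8%, 60.3% and 73.9% of thinned cells of control 2, mutant 1 and mutant 2 were member-high. The mutant mean exceeded the control mean by 2.72 percentage points, and the groups overlapped (exact permutation test over libraries, two-sided, p = 1). With 2 libraries in each group this test cannot give a p below 0.333. Before thinning the shares were 90.4%, 95.3%, 96.6% and 92.0%. The mixed barcodes of control 2 were member-high in 97.8% of 1835 cells, with a median of 13 member UMIs.

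Without the mixed barcodes the shares were 50.2%, 53.9%, 60.3% and 73.9%, with 243, 1402, 388 and 4130 thinned cells, and both mutants lay above both controls by 15.1 percentage points in the mean (two-sided exact permutation p = 0.333, the smallest possible). This separation depends on leaving out the mixed cells of control 2, which carried mesothelial markers and were 97.8% member-high. At the limit of 16 the shares were 26.3%, 27.2%, 29.6% and 46.1%. Mutant 1 exceeded control 2 by less than its own 95% interval is wide, and the difference between the means, 11.1 percentage points, rests on mutant 2.

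Within the larger fibroblast-like clusters, Lef1 and Tcf21, the shares did not separate the groups. The Dpt cluster had too few cells outside control 2 to compare, and 14.7% of its 68 cells there were upper-range. In the Lef1 cluster 65.8% of 38 and 57.8% of 206 cells of the controls were upper-range, against 41.9% of 74 and 65.3% of 1578 cells of the mutants. In the Tcf21 cluster the shares were 34.2% of 38 and 38.8% of 201 cells against 28.0% of 25 and 45.0% of 844 cells. Mutant 1 was the lowest library and mutant 2 the highest or next to highest in both clusters. With both clusters weighted equally in every library, 78.9% and 81.5% of control cells and 67.2% and 84.8% of mutant cells were member-high, so the mutant mean was lower by 4.21 points (−4.21, exact permutation test over libraries, two-sided, p = 1). At the limit of 16 the weighted shares were 50% and 48.3% against 34.9% and 55.1%. The direction of this small difference turned under other settings of depth, doublets and clustering. At the finer clustering a smooth muscle-like cluster was among those that qualified, so that value is not of fibroblast-like clusters alone. With doublets kept the cells were clustered anew.

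The Upk3b cluster of the controls held 15.5% upper-range cells in each library (17 of 110 cells, exact 95% interval 9.3 to 23.6%, and 102 of 657 cells, 12.8 to 18.5%). The Des cluster of the mutants held 26.9% of 238 cells (21.4 to 33%) and 25.7% of 1317 cells (23.4 to 28.2%). The 2 mutant values differed from the 2 control values by more than the libraries within a group did (two-sided exact permutation p = 0.333, the smallest possible), and the 23 Des cells of control 2 stood at 26.1% (10.2 to 48.4%). The other mesothelial-like cluster, led by Col6a5, held 29.9% upper-range cells in control 2 (20 of 67 cells, 19.3 to 42.3%). In control 1 it held 0 of 8 (exact 95% upper bound 36.9%). Low shares in the controls are thus shown for the Upk3b cluster and not for all mesothelial-like cells. The intervals cover counting error only.

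In the Myh11 cluster both small libraries held no upper-range cell. 0 of 18 cells in control 1 and 0 of 23 cells in mutant 1 were upper-range, which allows shares of up to 16.7% and 13.0% by the limit of 3 counts (exact 95% upper bounds 18.5% and 14.8%). In control 2 16.55% of 139 cells were upper-range (10.8 to 23.8%), and in mutant 2 31.1% of 270 cells (25.6 to 37%). These intervals cover counting error within a library only. Over libraries the 2 groups overlapped, because mutant 1 held no upper-range cell and control 2 did. The libraries numbered 1 are the smaller and more deeply sequenced ones, and whether depth or sorting bears on this was not tested.

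**Figure D4:**
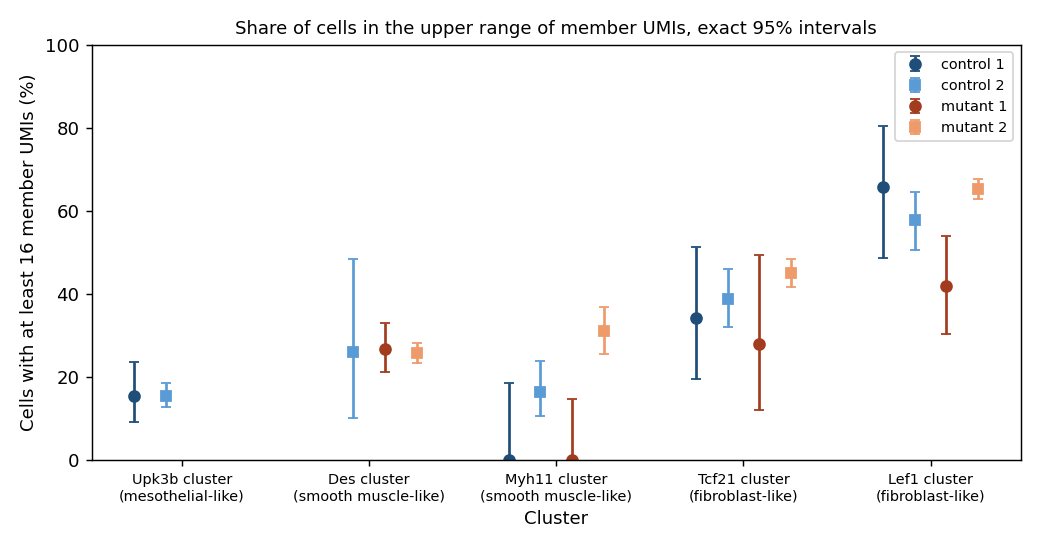
Share of thinned cells with 16 or more member UMIs in 5 clusters, by library, with exact 95% binomial intervals, for libraries with at least 15 thinned cells in the cluster. The Upk3b cells of both controls stand at 15.5%, the Des cells between 25.7% and 26.9%, and the Lef1 cells between 41.9% and 65.8%, and in the Lef1 and Tcf21 clusters the groups overlap, with the mutants further apart than the controls.

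The difference between each mutant and each control library was divided into a part from the make-up by cluster and a part from the shares within clusters, with mixed barcodes left out. A cluster with under 20 cells in 1 library took the share of the other there. At the limit of 16 this replacement moved the total difference from 3.30 to 1.93 and from 19.7 to 13.3 points for mutant 1 and mutant 2 against control 1, where only 2 clusters had 20 cells in both libraries. Against control 2, with 4 such clusters, it moved from 2.39 to 2.87 and from 18.8 to 18.7 points. Of the replaced totals, the make-up gave 6.76 and 11.5 percentage points for mutant 1 and mutant 2 against control 1, and 7.73 and 14.5 points against control 2. The shares within clusters gave −4.83 and 1.81 points against control 1, and −4.86 and 4.21 points against control 2. The make-up part was thus above 0 in all 4 pairs, which share libraries, and the part within clusters was below 0 for mutant 1 and above 0 for mutant 2. The make-up part counts the exchange of Upk3b for Des cells as make-up, although it also follows the genotype.

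Other cell cycle lists followed the members. In all sorted cells 45 of 46 other replication genes and 60 of 62 other mitosis genes were higher in the mutants, with median log2 changes of 0.37 and 0.36. In mesenchymal-like cells 19 of 46 and 20 of 62 were higher, with medians of −0.05 and −0.07, and edgeR and DESeq2 called none in either population. At an unadjusted p under 0.05 edgeR had 2 and 2 of them in all sorted cells and 0 and 1 in mesenchymal-like cells. Of all genes 8.74% had such a p in all sorted cells and 8.50% in mesenchymal-like cells. The genes of these lists with the smallest p in mesenchymal-like cells were Ttk, a spindle checkpoint kinase, with a log2 change of −0.60 ± 0.23, and Ckap2, a spindle protein, with −0.39 ± 0.23, and among replication genes Rpa1, which binds single-stranded DNA, with −0.40 ± 0.23, and Mcm10, with −0.50 ± 0.33.

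Of 16 E2F, MuvB and FoxM1 transcription factor genes, 13 were higher in all sorted cells and 8 in mesenchymal-like cells, with medians of 0.28 and −0.05. edgeR and DESeq2 called none, and edgeR had 0 at an unadjusted p under 0.05 in each (8.74% and 8.50% of all genes). E2f7, a repressor of the family, had a log2 change of −0.49 ± 0.26 in mesenchymal-like cells, and Lin37, a MuvB subunit, of 0.50 ± 0.30. The G1 cyclins and kinases, upstream of replication, did not go one way: 6 of 9 were higher in mesenchymal-like cells. Ccnd1, cyclin D1, stood there at 25.2 and 34.4 CPM in the controls and 111 and 55.5 CPM in the mutants, a log2 change of 1.501 ± 0.33 (SE, edgeR adjusted p = 0.245). Mycn stood at 7.89 and 3.51 CPM against 1.43 and 2.003 CPM, a log2 change of −1.52 ± 0.56, which edgeR did not call. For neither gene did the groups overlap. DESeq2 called Ccnd1 but not Mycn.

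Of 18 inhibitors and pocket proteins 17 were tested in mesenchymal-like cells, with 11 higher, a median log2 change of 0.22. edgeR called none (3 at an unadjusted p under 0.05, against 8.50% of all genes). DESeq2 called 1, Ccng1, and 374 of all 14323 genes. Ccng1, a cyclin induced by p53, stood at 22.5 and 27.7 CPM against 90.9 and 42.3 CPM, a log2 change of 1.43 ± 0.34 (SE, edgeR adjusted p = 0.253). Gadd45b, a stress-induced regulator, stood at 39.1 and 46.3 CPM against 78.8 and 55.2 CPM, 0.70 ± 0.24. Of the dissociation list, Hspb1, a small heat shock protein, had a log2 change of 1.92 ± 0.34 (edgeR adjusted p = 0.173) and Ier3, an immediate early gene, of 1.56 ± 0.43 in the same cells. In fibroblast-like cells Ccnd1, Ccng1 and Hspb1 had log2 changes of 0.53, 0.63 and 0.03. Mutant 1 was the highest library for Ccnd1, Ccng1, Gadd45b, Hspb1 and Ier3 in mesenchymal-like cells. Its summed member level there was the lowest, 3734 CPM against 5129, 5438 and 5218 CPM in control 1, control 2 and mutant 2. Its make-up also differed: 249 of its 382 mesenchymal-like cells were Des cells, against 1 of 118, 23 of 677 and 1344 of 4151. In fibroblast-like cells the sums lay closer, 5804 CPM in mutant 1 against 6209, 6188 and 6526 CPM. Whether these values are linked was not tested.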

How the data were processed

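Single-cell 3′ libraries (10x V3) of 4 samples were used. The count matrices deposited by the authors hold whole UMI counts per gene and barcode, made with Cell Ranger 6.0.2 on mm10, per the submitters' processing notes; further filters are not given in the sources used here. Cells with at least 1000 genes and at most 15% mitochondrial UMIs were kept, and the highest doublet scores (0.8% per 1000 cells) were removed. Cells were clustered with scanpy 1.11.5 (Leiden resolution 0.4) without the members, the other replication and mitosis lists and 622 genes correlated with them, and clusters were named from marker lists. UMI counts were summed per library and cell class and tested with edgeR 4.0.16 (filterByExpr, TMM, quasi-likelihood test, two-sided, Benjamini-Hochberg over all genes, threshold 0.05), without a replicate term. The code was tested on simulated counts. CPM values divide a gene's UMIs by all UMIs of the summed cells, without TMM factors. Shares used cells thinned without replacement to 5000 UMIs. The members and lists were chosen with earlier results of these data known. Values per library were given for members called in any setting and for 12 members chosen by role, and for up to 2 genes per other list with the smallest p in mesenchymal-like cells. The labels do not say that same-numbered libraries are paired, or that replicates came from separate litters, so p-values measure the spread between these libraries. With 2 libraries per group, replicate counts differed by far more than sampling noise (chi-square per degree of freedom 97.4 and 203).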

Additional observations from a re-analysis of the deposited data

How the results depend on the processing

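The count of members called was 0 under every alternative run except leaving out mutant 1 in all sorted cells: over the 4 settings that leave out a library it ran from 0 to 6 there (calls over all genes ran from 74 to 1097, the most without mutant 1), and was 0 in mesenchymal-like and fibroblast-like cells. Over the same settings the members' median log2 change ran from 0.028 to 0.78 in all sorted cells, from −0.35 to 0.23 in mesenchymal-like cells and from −0.10 to 0.36 in fibroblast-like cells. The low end came without mutant 2 and the high end without mutant 1 in each population, and the lone remaining library is then assumed to vary like the other group. At Leiden resolution 0.8 the median was 0.23 in mesenchymal-like and 0.22 in fibroblast-like cells. In fibroblast-like cells it was 0.17 without the low-count filter and 0.19 with doublets kept. The equally weighted share within clusters, −4.21 percentage points, was 6.84 at resolution 0.8, where a smooth muscle-like and a fibroblast-like cluster qualified. With doublets kept and the cells clustered anew it was 2.65. It was 3.06 and 1.63 when cells were thinned to 3000 and 10000 UMIs with limits of 3 and 10 UMIs. Leaving out each library moved the share over all sorted cells between −11.7 and 17.1 percentage points and the weighted share between −13.0 and 4.62. The 6 settings added after the data were seen used limits of 16 member UMIs or 20 UMIs of the other lists. In that order they gave 9.77 and 5.26 points over all sorted cells and 11.1 and 13.8 points without the mixed barcodes. Within clusters they gave −4.10 and −0.94 points. Of 384 alternative values of the 12 members given by role, 333 kept their direction and side of the threshold, 49 changed sign with no call on either side, and 2 (Rrm2 and Ccne1 without mutant 1) became called. Over all genes DESeq2 called 499 in all sorted cells, 374 in mesenchymal-like and 7 in fibroblast-like cells, against 58, 0 and 0 with edgeR, and no member among them.

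With the replicate number as a block, 0 members were called in all sorted, mesenchymal-like and fibroblast-like cells, with medians of 0.40, −0.06 and 0.13. In all sorted cells 17 members then had an unadjusted edgeR p under 0.05, all higher, with a smallest adjusted p of 0.0696. Of all genes 16.4% had such an unadjusted p, 1059 higher and 1609 lower. In mesenchymal-like cells 1 member had it, lower in the mutants (10.8% of all genes), and in fibroblast-like cells 0 (5.05% of all genes). Over all genes the block raised the calls from 58 to 525, from 0 to 16 and from 0 to 59. Deviations of same-numbered libraries from their group means correlated at 0.45, 0.18 and 0.29 across genes. The labels state no pairing, and there are only 2 pairs. Same-numbered libraries were also alike in size and depth. Those numbered 1 had 281 and 411 cells with medians of 29175 and 38719 UMIs. Those numbered 2 had 3503 and 4275 cells with medians of 14322 and 15957 UMIs. Whether the numbers stand for batches was not tested.

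Depth limits the rarer clusters: exact intervals of shares from fewer than 40 cells are wider than 10 percentage points. So are some from more cells, such as 9.3 to 23.6% from 110 Upk3b cells of control 1 and 21.4 to 33% from 238 Des cells of mutant 1. No exact permutation test of shares between 2 libraries and 2 can fall below p = 0.333.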
